A study of Mus musculus with 28 samples.

Results

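The clustered protocadherin genes are described here across the histone marks and the Oct4 binding of WT and Spen KO mouse embryonic stem cells (mESCs). Members were the protein-coding genes on chromosome 18 of the mm9 genome whose symbol in the GENCODE vM1 annotation begins with Pcdha, Pcdhb or Pcdhg. The rule found 24 of the 22372 protein-coding genes, of which 2 were Pcdha, 21 were Pcdhb and 1 was Pcdhg. This annotation gathers most exons of the alpha cluster into the gene Pcdha11, with 10 transcripts, and the whole gamma cluster into the gene Pcdhgc5, also with 10 transcripts. First exons were therefore also taken transcript by transcript, which gave 40 distinct first exons of at least 100 bp, with 10 in Pcdha, 21 in Pcdhb and 9 in Pcdhg. Because each variable exon is a single long coding stretch, all plus-strand open reading frames of at least 2000 bp in the cluster spans were listed as well. There were 58 such frames, with 14 in Pcdha, 24 in Pcdhb and 20 in Pcdhg. Of these, 40 matched an annotated first exon and 18 did not. The minus strand of the same spans held 3 frames of that length. No symbol of the C-type isoforms other than Pcdhgc5 is present in this annotation, so C-type and alternate isoforms could not be compared.

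Clustered protocadherins are cell adhesion proteins best known from neurons, where each cell uses a few isoforms as a surface identity code. In the alpha and gamma clusters, every variable first exon has a promoter of its own and is spliced to constant exons at the 3′ end of the cluster, while the beta genes consist of a single exon. Promoter choice is known to involve CpG methylation, CTCF and cohesin, and in stem cells most isoforms are silent or expressed at low levels. H3K4me3 marks promoters that are active or poised and CpG-rich DNA in general, H3K9me3 marks heterochromatin, and H3K27Ac marks active promoters and enhancers.

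Chromatin immunoprecipitation with sequencing (ChIP-seq) was performed in mESCs of the haploid HATX line, of mixed genomic background, grown in serum with LIF. The groups were HATX WT and Spen KO clone 2, which lacks most of the gene for Spen, an RNA-binding repressor that acts with Xist; in both lines the X chromosome carries an Xist transgene that doxycycline can switch on, and the labels name no doxycycline treatment. The 28 samples were 16 ChIP libraries, 2 per genotype for each of 4 antibodies, and 12 inputs. The libraries of a genotype are described as technical replicates and Spen KO is 1 clone, so that clone and genotype cannot be told apart.

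The deposited files were 10 lists of peaks, with 1 combined list per genotype for each histone mark and 1 list per library for Oct4. Presence and coverage of histone marks therefore had 1 value per genotype and no test, and they are given as descriptions. The H3K4me3 and H3K27Ac lists also hold a score per library, in columns that do not name the replicate, and these scores are given as values. Read depth is unknown, and a missing peak may have fallen short of the calling threshold by little. The WT lists were the longer ones for H3K4me3 (34823 against 31091 peaks) and the shorter one for H3K9me3 (53745 against 70268 domains). H3K4me3 lay on the first exon of 9 of 9 mESC markers, 4 of 5 neuron markers and 2 of 6 fibroblast markers in either genotype. H3K27Ac separated the lists further and lay on 8 mESC markers in each genotype, on 1 neuron marker (Tubb3, in Spen KO) and on 0 fibroblast markers.

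H3K9me3 domains were called in the cluster spans but on no annotated protocadherin first exon, though they reached some unannotated reading frames. No first exon of the 24 genes was in an H3K9me3 domain in WT or in Spen KO, where 6.39% (WT) and 6.32% (Spen KO) of all protein-coding genes had one. The same was true of all 40 annotated first exons. Among genes whose first exon is at least 2000 bp long, as it is in the members, the shares were 11.4% and 12.2%. At such shares few of 24 genes would lie in a domain in any case. The cluster spans did hold the mark. Domains covered 25.9% of the Pcdha cluster (257 kb, chr18:37089939-37347311) in WT and 22.2% in Spen KO. They covered 23.3% and 17.7% of the Pcdhb cluster (256 kb, chr18:37424652-37681073). Of chromosome 18 as a whole, 13.9% and 11.9% was covered, less than of Pcdha or Pcdhb. The Pcdhg cluster (168 kb, chr18:37833989-38001527) stood apart with 1 short domain per genotype, covering 1.31% and 1.79% of its bases.

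**Figure D1:**
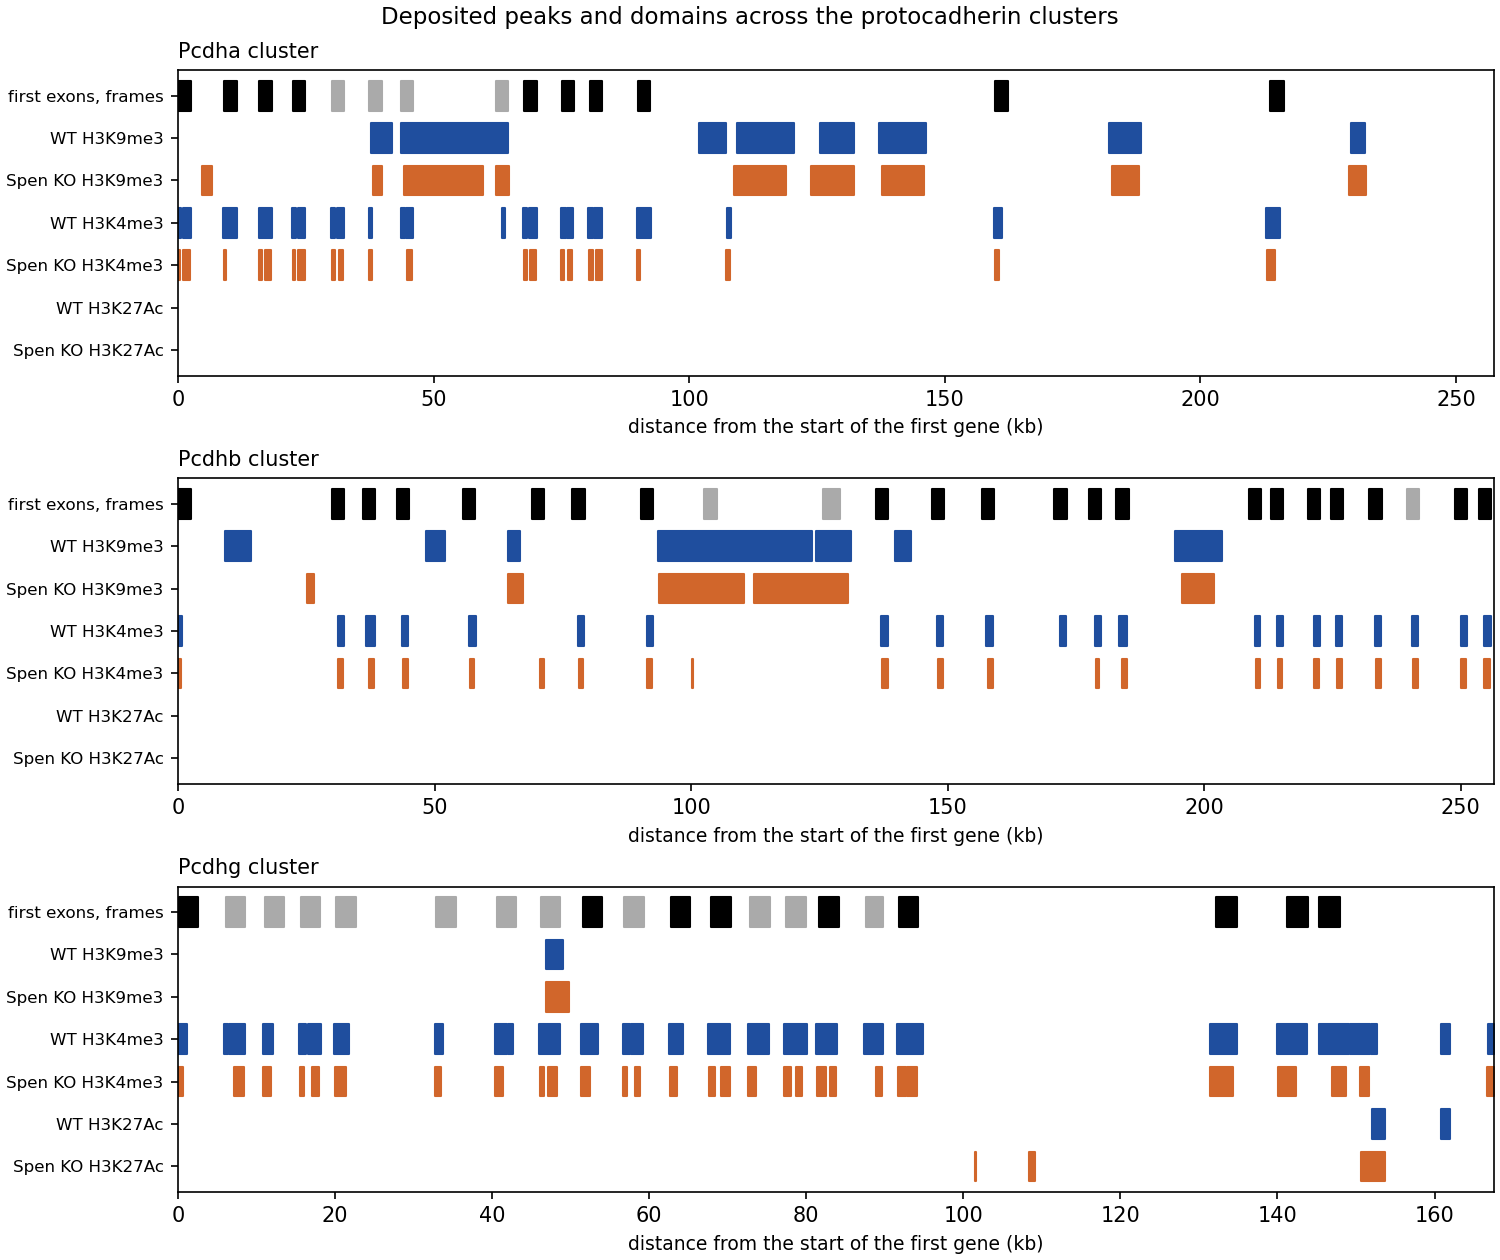
Positions of deposited H3K9me3 domains, H3K4me3 peaks and H3K27Ac peaks in WT (blue) and Spen KO (orange) along the 3 clusters, in kb from the start of the first gene of each cluster. Black boxes are reading frames at annotated first exons and grey boxes are the 18 frames without one. H3K4me3 followed the boxes, H3K9me3 lay off the black boxes but on 6 grey ones, and H3K27Ac was seen in the Pcdhg cluster alone.

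The domains kept to particular intervals. In the Pcdha cluster there were 8 domains in WT and 9 in Spen KO, and 7 of the WT domains overlapped a Spen KO domain. The longest WT domain in that cluster ran over 20800 bp (chr18:37133601-37154400) in the stretch between the first exons of transcripts Pcdha11-208 and Pcdha11-207, and had a score at percentile 93.7 of the WT list, where percentile 100 is the strongest domain. In Spen KO the same stretch held domains of 15400, 2400 and 1800 bp, the last of them opposite a separate WT domain of 4200 bp. A second group of domains lay in the exon-free interval that separates the exons of Pcdha11-203 and Pcdha11-201. In the Pcdhb cluster, 4 of 7 WT domains and 4 of 5 Spen KO domains were shared. The longest WT domain there, of 30000 bp (chr18:37518201-37548200), filled most of the gap between the genes Pcdhb8 and Pcdhb9 and stood at percentile 98.8. A second WT domain in that gap, of 6800 bp (chr18:37549001-37555800), stood at percentile 9.95. Spen KO also had 2 domains in the gap, of 16600 bp and 18400 bp. Over the 3 clusters, 4 of 16 WT domains and 2 of 15 Spen KO domains had no counterpart in the other genotype, against 11.8% and 23.2% of the whole lists.

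Flanking DNA carried more of the mark on 1 side than on the other. Of the 100 kb before the Pcdha cluster, 92.1% was covered in WT, by a single domain of 117200 bp, and 86.3% in Spen KO, by 3 domains. Here too the whole lists differ, with shorter domains at the median in Spen KO. The intervals between the clusters were also heavily covered, with 37.0% (WT) and 25.9% (Spen KO) between Pcdha and Pcdhb and 39.2% and 34.4% between Pcdhb and Pcdhg. None of the 100 kb after the Pcdhg cluster was covered in either genotype. From the short domain in the Pcdhg cluster to 100 kb beyond that cluster, neither list had a further domain.

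Distance to the nearest domain varied between members. Over the 24 first exons the median was 9228 bp (WT) and 10828 bp (Spen KO), and the distance was longer in Spen KO for 18 genes and shorter for 6. All 18 were Pcdhb genes. Neighbouring genes shared a nearest domain, so these were not 18 separate changes. From Pcdhb12 to Pcdhb18 the nearest domain was chr18:37619001-37628200 in WT and chr18:37620401-37626600 in Spen KO. Over the annotated first exons of the other clusters the distance was longer for 3 and shorter for 7 in Pcdha, and longer for 1 and shorter for 8 in Pcdhg, so that the 40 exons together had 22 longer and 18 shorter distances. The genes nearest to a domain in WT were Pcdhb9, at 838 bp, and Pcdhb8, at 937 bp, on both sides of the long Pcdhb gap. In Spen KO the distances were 5309 bp for Pcdhb9 and 1137 bp for Pcdhb8, both to domains in the gap. The farthest was the annotated first exon of Pcdhgc5, at 96200 bp and 95400 bp. All 21 Pcdhb first exons lay within 23420 bp of a domain in WT and within 25872 bp in Spen KO.

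H3K9me3 reached 6 of the 58 reading frames, none of them annotated as a first exon. In the Pcdha cluster these were frames 6, 7 and 8 in 5′ to 3′ order, which lie side by side. Frame 6 (chr18:37127383-37129839) was covered over 91.1% in WT and 73.3% in Spen KO. Frame 7 (chr18:37133551-37135974) was covered over 97.9% and 73.2%, and frame 8 (chr18:37152121-37154514) over 95.2% and 96.7%. Between 16.6% and 19% of their 16-base words recurred in the most similar annotated Pcdha first exon, against 16% to 20.3% for the annotated frames other than the last 2. In the Pcdhg cluster, frame 8 was covered over 75.1% in both genotypes. The remaining pair, frames 9 and 10 of the Pcdhb cluster, was covered completely in both genotypes, but shared no 16-base word with any annotated Pcdhb exon. Of the 75-base words of these frames, 0% and 2.45% occurred once in mm9. They sit in the gap between Pcdhb8 and Pcdhb9 and are repeated sequence by this measure.

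Reading frames as a whole were not free of the mark, which in WT covered 20.1% of frame bases and 26.8% of other bases in Pcdha, 9.53% and 27.4% in Pcdhb, and 3.62% and 0.346% in Pcdhg.

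Multi-copy sequence moved with the mark in the Pcdha and Pcdhb clusters. Inside WT domains 62.8% of the 75-base words of the Pcdha cluster and 71.4% of those of the Pcdhb cluster occurred once in mm9, against 95.9% and 98.2% outside the domains. In Spen KO the shares inside were 65.2% and 65.7%. In the Pcdhg cluster they were 95.9% inside and 98.4% outside in WT. Uniquely mapped read pairs are said to have been kept, though not for which lists, and the part of multi-copy sequence in the results was not tested.

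H3K4me3 was present at nearly every protocadherin first exon. In WT, 23 of the 24 genes had a peak on the first exon, and in Spen KO 23 did, with 22 marked in both; over all protein-coding genes the shares were 61.3% and 59.6%, and over those with a first exon of at least 2000 bp 64.0% and 61.9%. By transcript, 39 of the 40 first exons were marked in each genotype. By reading frame, 55 of 58 were marked in WT and 54 in Spen KO, and the frames without a peak in both were the repeated frames 9 and 10 of the Pcdhb cluster. Of the 75 WT peaks in the 3 clusters, 69 lay on a reading frame or within 200 bp of its start, and of the 72 Spen KO peaks 68 did. In the Pcdhb cluster 99.2% of the WT H3K4me3 bases fell in reading frames, which make up 22.7% of the cluster. In the Pcdha and Pcdhg clusters the corresponding values were 87.1% and 75.1%, with 13.3% and 29.5% of the bases in frames.

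The only genes marked in 1 genotype were Pcdhb6 and Pcdhb12, and these went in opposite directions. At Pcdhb6 (first exon chr18:37493682-37496000), no WT peak was called and a Spen KO peak covered 34.4% of the exon. This peak was among the weakest of its list, at percentile 2.36 by score, with the 2 libraries at 1.85 and 8.26. At Pcdhb12 (chr18:37595275-37598308), a WT peak covered 37.6% of the exon at percentile 40.1, with the libraries at 35.1 and 45.2, and no Spen KO peak was called. By sequence, these were also the least distinct annotated Pcdhb frames, with 94.0% (Pcdhb6) and 94.8% (Pcdhb12) of their 75-base words occurring once in mm9. The part of this in the calls was not tested. Over all genes, 2.31% had a first exon marked in WT alone and 0.572% in Spen KO alone. A further frame, frame 8 of the Pcdha cluster, which also lies in H3K9me3, was marked in WT alone, over 29% of its bases and at percentile 6.85.

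Peaks of the protocadherin exons ranked in the middle of the lists. Each score was expressed as its percentile among all H3K4me3 peaks of the same genotype, and the strongest peak at each exon was used. The median over the marked genes was 60.0 in WT and 38.6 in Spen KO, whereas the median over all protein-coding genes marked in both was 79.6 and 76.9. The lowest WT value was that of Pcdhb1, at 16.2, and the highest was that of Pcdha3, at 77.8. Among the transcripts, the exon of Pcdhgc5-202 was the strongest in WT, at 91.3, and it fell to 58.8 in Spen KO.

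The position of H3K4me3 within the exon differed between the clusters. Each reading frame was divided into 3 equal parts. In the Pcdhb cluster, the first part carried H3K4me3 in 3 of 24 frames in WT and 1 in Spen KO, while the middle and last parts were each marked in 20 frames in both genotypes. In the Pcdha cluster, the first part was marked in 13 of 14 frames in WT and 12 in Spen KO. In the Pcdhg cluster, it was marked in 20 of 20 and 17 of 20. The median coverage of the first part in WT was 84.5% in Pcdha, 0% in Pcdhb and 100% in Pcdhg. For the beta genes, the mark therefore lay well inside the coding sequence and not at the start. Pcdhb1, at the 5′ end of the cluster, was the exception, with 94.7% of the first part and none of the others covered in WT.

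Bins of 100 bp around the first coding base showed the same arrangement. In WT, 4.76% of the 21 Pcdhb first exons, which is Pcdhb1 alone, had H3K4me3 in the bin that starts at the first coding base. The share reached 76.2% at 1100 bp, stayed at 90.5% from 1200 to 2000 bp and was 0% from 2500 bp. In Spen KO it was 33.3% at 1100 bp and 57.1% at 1200 bp, so the plateau began later. In the Pcdha cluster all 10 exons were marked at the first coding base in both genotypes. A dip followed at 700 bp in WT, where 60.0% were marked, and at 900 bp in Spen KO, where 10.0% were, before a further plateau of 90.0% and 60.0% around 1500 bp. All 9 Pcdhg exons were marked in WT and 88.9% in Spen KO at the first coding base.

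**Figure D2:**
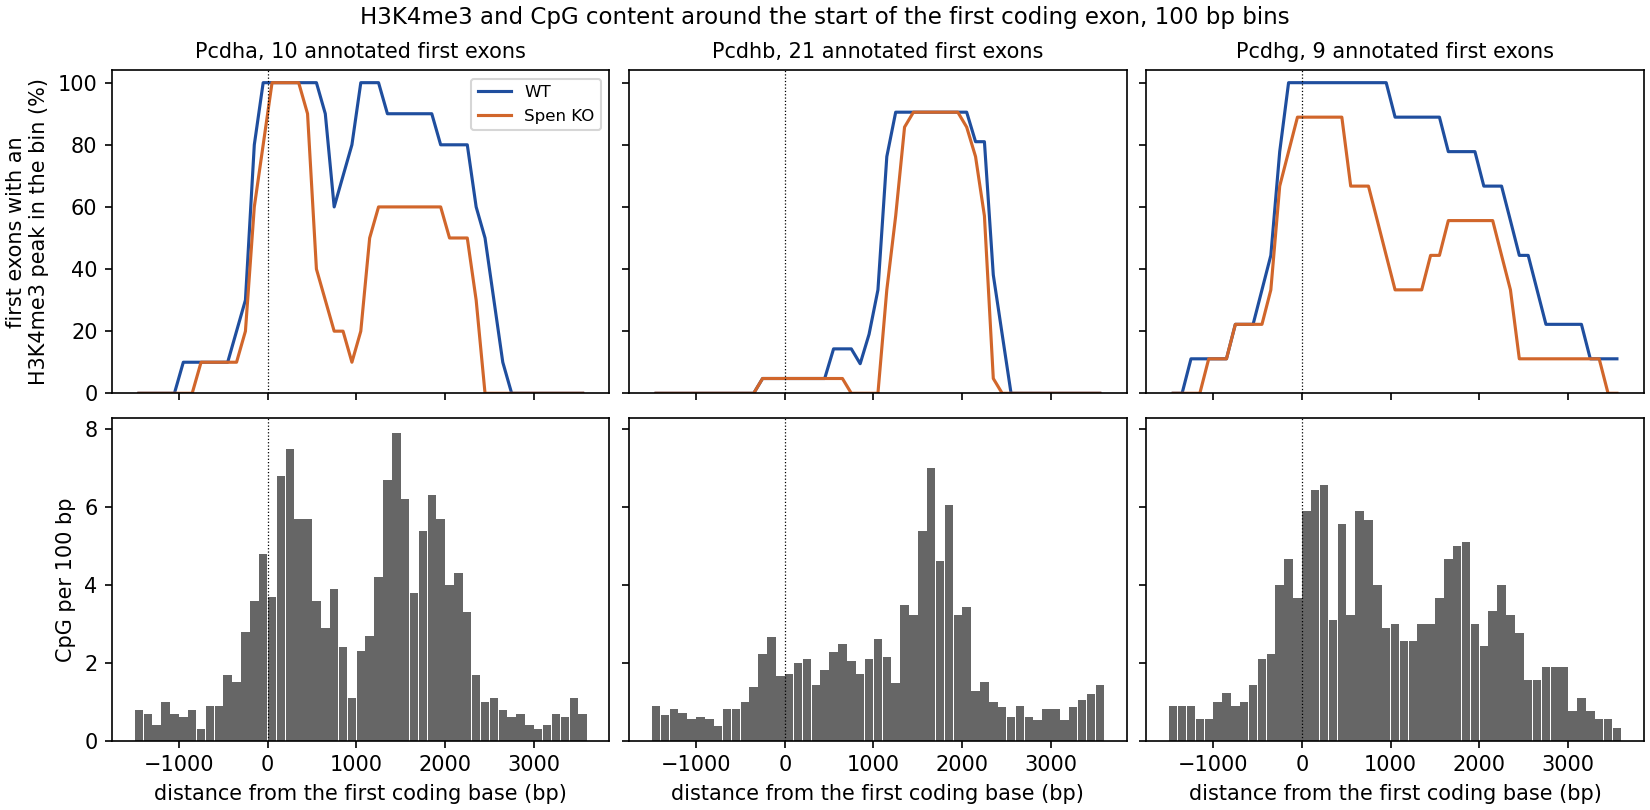
Upper row: share of annotated first exons with an H3K4me3 peak in each 100 bp bin, by distance from the first coding base, in WT (blue) and Spen KO (orange). Lower row: mean number of CpG dinucleotides per 100 bp in the same bins. In the Pcdhb cluster both the mark and the CpG maximum of 7.0 lie about 1600 bp inside the coding sequence, whereas Pcdha exons have 2 maxima and 2 blocks of the mark.

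A window of 1000 bp on each side of the annotated start site gave a different picture. Only 6 of the 24 genes had H3K4me3 in that window in WT and 3 in Spen KO, where 62.7% and 61.1% of all genes did. The 6 were Pcdha3, Pcdha11, Pcdhb1, Pcdhb3, Pcdhb14 and Pcdhgc5. The window was covered over 11.8% at Pcdhb3 and 12.0% at Pcdhb14 in WT, through the upstream end of a peak in the exon. In Spen KO, Pcdha3, Pcdha11 and Pcdhb1 remained, with 23%, 86.9% and 44.2% of the window covered.

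The placement of the mark went along with CpG content within Pcdhb and Pcdhg frames and less so within Pcdha frames. CpG density in the Pcdhb frames, counted over the 22 that are not repeated sequence, had a median of 1.92 per 100 bp in the first part, 2.57 in the middle part and 3.64 in the last. In the Pcdha frames the medians were 4.78, 5.13 and 4.38, and in the Pcdhg frames 4.56, 2.79 and 3.75. The median ratio of observed to expected CpG over whole frames was 0.661 in Pcdha, 0.438 in Pcdhb and 0.581 in Pcdhg, above the 0.305, 0.267 and 0.371 of the cluster spans. Across the 168 parts of 56 frames, CpG density and the percent of bases under H3K4me3 had a Spearman correlation of 0.648 in WT and 0.623 in Spen KO. Within the clusters the correlation was 0.784 and 0.735 in Pcdhb, 0.641 and 0.778 in Pcdhg and 0.246 and 0.258 in Pcdha. Over whole frames, the ratio of observed to expected CpG and H3K4me3 coverage had a correlation of 0.0535 and -0.0746 in Pcdhb, 0.167 and 0.305 in Pcdha and 0.513 and 0.692 in Pcdhg. These values describe the parts of related exons that share 1 list per genotype, and such parts are not independent. Where a single part of a frame had the highest coverage, it was also the part with most CpG in 17 of 21 Pcdhb frames, 9 of 10 Pcdhg frames and 2 of 10 Pcdha frames in WT.

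H3K4me3 covered less of the exons in Spen KO. Of the 22 genes marked in both genotypes, 22 had lower coverage in Spen KO, with a median change of -6.64 percentage points. Of all genes with a peak in both, 7.52% had lower coverage, the median first exon being covered completely in both genotypes. Among genes with a first exon of at least 2000 bp the share was 82.3%, with a median change of -6.68 points. The median change of the 22 genes, of which 19 were Pcdhb, was close to that of long first exons in general. Over the 40 annotated first exons it was larger, at -12.8 points. It was -23.1 points over those of Pcdha and -29.0 over those of Pcdhg. On chromosome 18, coverage of the 1000 bp windows at start sites changed by a median of -6.7 points, against -3.62 over all genes.

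**Figure D3:**
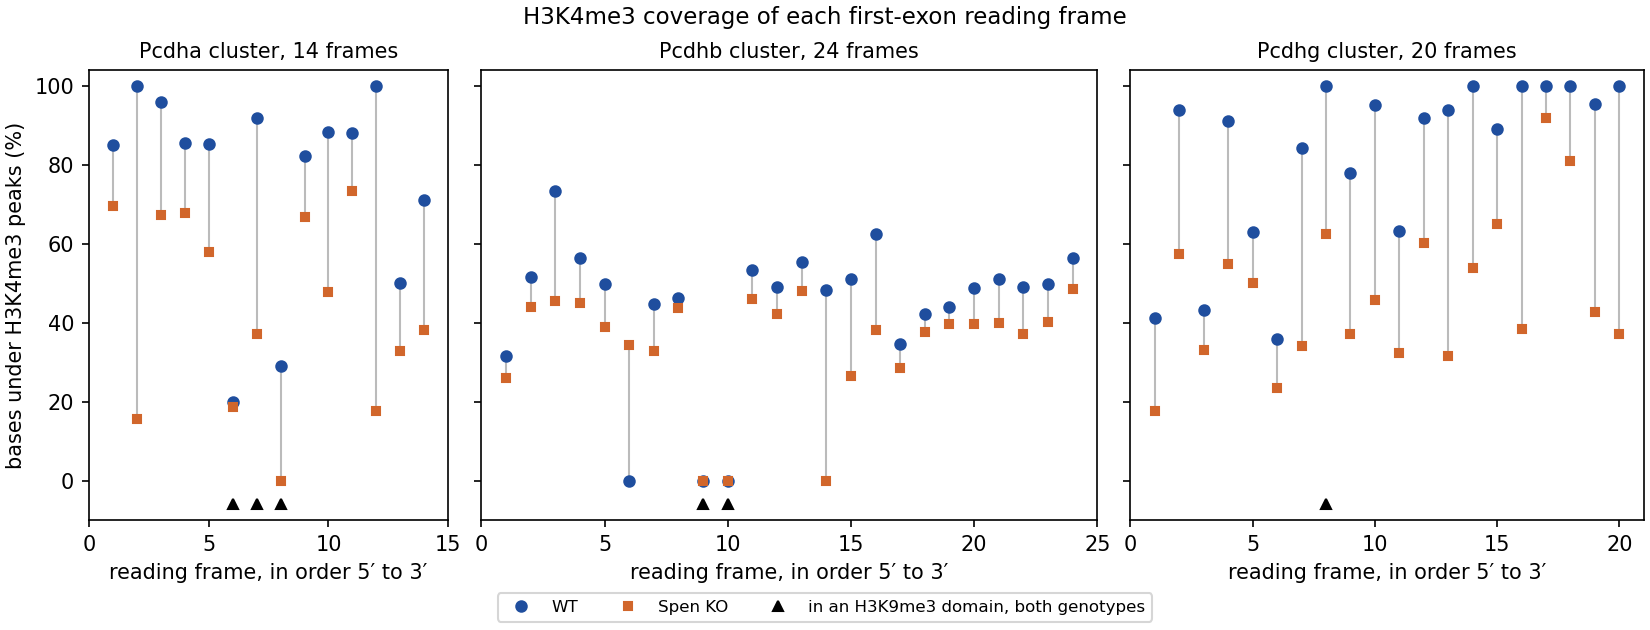
Percent of bases under H3K4me3 peaks for each of the 58 reading frames in WT (blue circles) and Spen KO (orange squares), joined by a grey line; triangles mark the 6 frames in an H3K9me3 domain. The squares lie below the circles in 55 frames, above in 1 (Pcdhb6, frame 6 of its cluster) and at 0 with them in 2.

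Among the beta genes, values were closely grouped. In WT, the covered share of the first exon ran from 17.2% at Pcdhb19 to 46.3% at Pcdhb8 over the 20 marked genes, and in Spen KO from 13.5% at Pcdhb19 to 43.7% at Pcdhb8. The low values at Pcdhb19 came with a first exon of 7131 bp that extends beyond the coding sequence, since 51.0% and 39.9% of its reading frame was covered. Over the reading frames, the WT value was 73.5% at Pcdhb3 and 62.6% at Pcdhb14, the highest of the beta frames, and it was 45.4% and 38.1% in Spen KO. Pcdhb13 changed from 33.6% of the first exon to 17.5%.

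All 19 beta genes marked in both genotypes had the lower value in Spen KO. At the 5′ end, the covered share of the first exon was 45.2% in WT and 38.0% in Spen KO at Pcdhb2, 45.7% and 28.2% at Pcdhb3, 35.7% and 28.5% at Pcdhb4, and 34.9% and 26.2% at Pcdhb5. In the middle, it was 31.8% and 23.4% at Pcdhb7, 43.5% and 37.5% at Pcdhb9, 41.4% and 35.5% at Pcdhb10, and 36.8% and 31.8% at Pcdhb11. Among these genes, Pcdhb3 had the widest difference between the genotypes. Towards the 3′ end, the values were 29.8% and 24.5% at Pcdhb15, 32.2% and 29.2% at Pcdhb17, 23% and 18.8% at Pcdhb18, 27.8% and 20.1% at Pcdhb21, and 43.8% and 37.7% at Pcdhb22. Pcdhb1, which opens the cluster and is marked at its start, changed from 31.6% to 26.1%.

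The size of the reduction differed between the clusters. The median change was -6.0 points over the 21 Pcdhb first exons, -23.1 over the 10 Pcdha first exons and -29 over the 9 Pcdhg first exons. The widest changes in the Pcdha cluster were at the exons of Pcdha11-209, from 100% in WT to 15.8% in Spen KO, and Pcdha11-203, from 100% to 17.7%. At both, 47.1% and 52.9% of the first part of the frame remained under H3K4me3 and the middle and last parts were at 0%. The exon of Pcdhgc5-203, which represents the gene Pcdhgc5, went from 99.2% to 31.5%. Here the first part of the frame was lost, while 100% of the last part was still covered. Smaller changes were those of Pcdhb16, from 19.3% to 17.2%, of Pcdhb8, from 46.3% to 43.7%, and of frame 6 of the Pcdha cluster, which lies in H3K9me3, from 19.9% to 18.6%.

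Median peak width fell most in the Pcdhg cluster and least in the Pcdhb cluster. The median width was 1288 bp in WT against 852 bp in Spen KO for the Pcdha cluster, 1226 and 942 bp for Pcdhb, and 1588 and 1027 bp for Pcdhg. The whole lists had medians of 1458 and 1324 bp. Only the WT peaks of the Pcdhg cluster were wider at the median than the list they came from. In all, 9 of the 75 WT peaks and 2 of the 72 Spen KO peaks had no counterpart in the other genotype, against 23.2% and 9.49% of the lists.

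Score percentiles, like coverage, were lower in Spen KO at most genes. The percentile of the strongest peak was lower in Spen KO for 20 of the 22 genes marked in both and higher for 2, Pcdhb1 and Pcdhb3, where 59.2% of all genes, 62.4% of those with a first exon of at least 2000 bp and 76.7% of those on chromosome 18 were lower. The median change over the 22 genes was -16.9, against -2.96 over all genes and -9.59 over the genes of chromosome 18. These percentiles rest on the same peaks as the coverage and were not tested.

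The combined lists also give a score for each library, which shows how far the libraries of a genotype differed. Over the marked genes, the median percentile was 64.2 and 59.1 in the WT libraries and 32.2 and 38.0 in the Spen KO libraries. Both Spen KO libraries were below both WT libraries at 12 of the 22 genes and above both at 0. Over all genes these shares were 27.4% and 13.9%, and the first was 28.9% over genes with a first exon of at least 2000 bp and 37.2% over genes of chromosome 18. The genotypes overlapped at the other 10 genes. At Pcdha3, the 2 WT libraries stood at 72.2 and 83.4 and the Spen KO libraries at 62.6 and 60.8. At Pcdha11, the values were 84.5 and 52.4 in WT against 67.3 and 74.7 in Spen KO, so the WT libraries enclosed both Spen KO values. At Pcdhgc5, they were 27.6 and 74.7 in WT against 32.2 and 35.3 in Spen KO, again with WT on both sides. At Pcdhb10, they were 64.2 and 58 in WT against 0.212 and 37.6 in Spen KO. Peaks ranked too differently in the 2 libraries had been removed from the lists beforehand, which may make this spread too small.

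**Figure D4:**
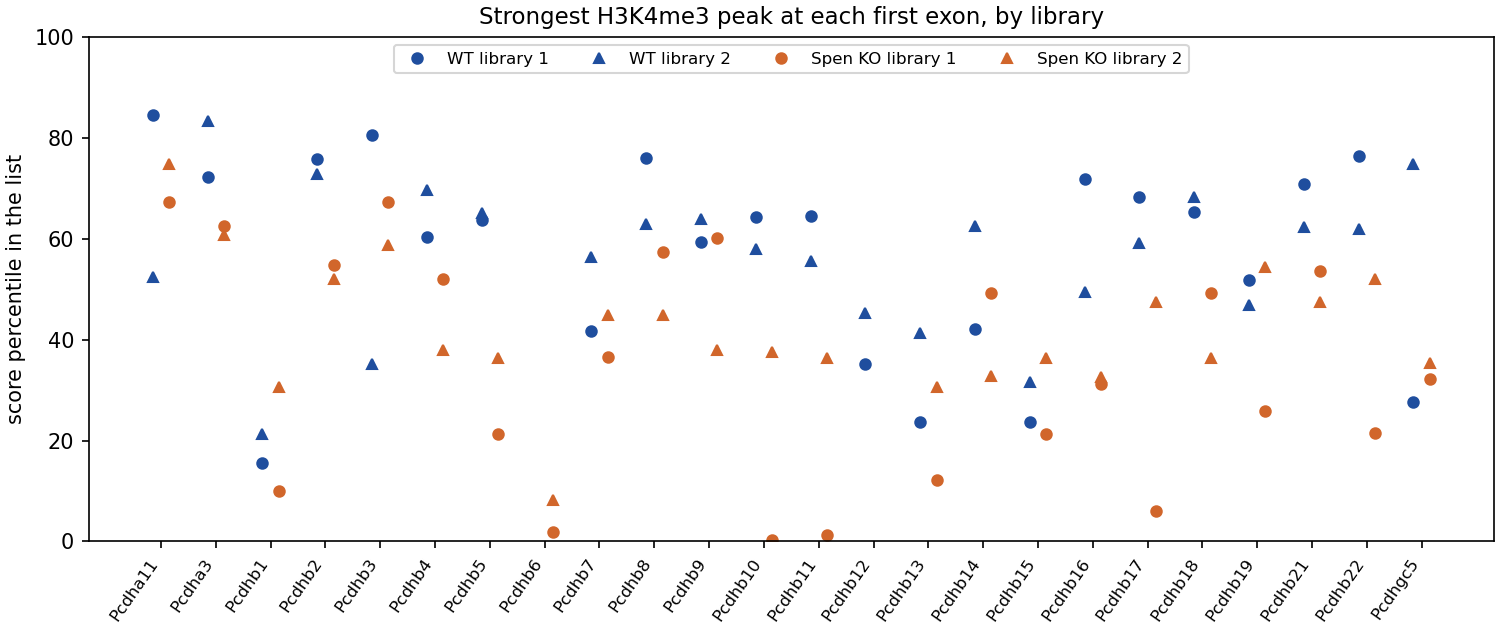
Score percentile of the strongest H3K4me3 peak at the first exon of each of the 24 genes, by genotype (blue WT, orange Spen KO) and library (circle and triangle). Both Spen KO libraries lie below both WT libraries at 12 of 22 genes; Pcdhb6 has no WT peak and Pcdhb12 no Spen KO peak.

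H3K27Ac was not found at any first exon. Neither genotype had a peak on the first exon of any of the 24 genes, on any of the 40 annotated first exons or on any of the 58 frames, where 15.3% (WT) and 17.0% (Spen KO) of all protein-coding first exons had one. Among genes with a first exon of at least 2000 bp the shares were 9.63% and 10.0%. The Pcdha and Pcdhb clusters held no H3K27Ac peak at all. In the Pcdhg cluster there were 2 WT and 4 Spen KO peaks, all outside the reading frames. The peak called in both genotypes lay between the first and second constant exons of the cluster, at chr18:37985967-37987709 in WT and chr18:37985680-37987741 in Spen KO, at percentiles 40.9 and 51.5. Its scores were 18.4 and 11.5 in the WT libraries and 12.8 and 25.1 in the Spen KO libraries, which overlap.

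The remaining H3K27Ac peaks of the Pcdhg cluster were called in 1 genotype. In WT this was chr18:37994868-37995924, between the second and last constant exons and at percentile 22.7. In Spen KO, chr18:37984661-37985676 covered the first constant exon at percentile 3.48. It ended directly before the start of the peak called in both genotypes, at 37985680, so it may not be a separate site. Further Spen KO peaks, chr18:37935407-37935615 (209 bp) and chr18:37942372-37943066 (695 bp), lay downstream of the exon of Pcdhgc5-202 at percentiles 71.2 and 21.1. Over the whole H3K27Ac lists, the share without a counterpart was 39.8% for WT and 29.4% for Spen KO. H3K4me3 was called in both genotypes over the first constant exon of the Pcdhg cluster and over the 3′ end of its last constant exon. A WT H3K4me3 peak at chr18:37994821-37995932 coincided with the second WT H3K27Ac peak and had no Spen KO counterpart.

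Oct4, the pluripotency factor, was not found at the first exons either. The number of members with an Oct4 peak on the first exon was 0 in each of the 4 libraries, where 2.5% and 1.5% of all genes had one in the WT libraries and 1.29% and 1.22% in the Spen KO libraries. With a count of 0 in every library, no test could show a difference, and at these background shares few calls among 24 genes would be seen in any case. Peaks in the cluster spans numbered 0 and 1 in the WT libraries and 1 and 0 in the Spen KO libraries, with p = 1.0 in an exact two-sided permutation test over the libraries, whose smallest possible p is 0.333. Both lay in the last constant exon of the Pcdhg cluster, at chr18:38000527-38000676 with a fold enrichment over input of 7.6 in WT replicate 2, and at chr18:38000671-38000794 with 5.56 in Spen KO replicate 1. They overlap by a few bases, and neither was seen in the second library of its genotype. The WT replicate 1 list stood apart, with the fewest peaks (1806 against 4111 in WT replicate 2) but the largest share of first exons. It marked 0 of 9 mESC marker first exons, against 1 in WT replicate 2 and 2 in each Spen KO library. By start site window it marked 2, against 3 in WT replicate 2 and 5 and 4 in the Spen KO libraries. The quality of this library was not tested.

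Among the 14 genes between or around the clusters, H3K4me3 lay on 11 first exons in each genotype, and H3K27Ac and H3K9me3 lay on 1 each. Within or between the clusters, Taf7, a subunit of a general transcription factor, had H3K4me3 over 100% of its first exon in both genotypes, Gm10545 over 100% in WT and 85.4% in Spen KO, and 3222401L13Rik over 25.2% and 5.58%. Slc25a2, a mitochondrial transporter, had none. Gm10545 runs on the opposite strand and starts inside the first exon of Pcdha11-203, so the mark there cannot be assigned to a single gene. Of the 5 genes before the Pcdha cluster, Dnd1, Hars, Hars2 and Zmat2 were covered completely by H3K4me3 in both genotypes, and Gm6756, inside the long flanking domain, was covered completely by H3K9me3. After the Pcdhg cluster, the first exons of Diap1, Hdac3, Rell2 and Fchsd1 were covered completely by H3K4me3 and that of Arap3 was not marked, while H3K27Ac was called at Diap1 alone. The 100 kb after that cluster held 10 H3K27Ac peaks in WT, over 15.4% of the bases, and 4 in Spen KO, over 3.67%. None of these 14 neighbours had an Oct4 peak on its first exon in any library.

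The 12 non-clustered protocadherins are single genes elsewhere in the genome. H3K4me3 lay on the first exon of 6 of them in WT and 5 in Spen KO, against the 61.3% and 59.6% of all genes. Pcdh18 was the gene marked in WT alone, over 37.1% of its exon. In the start site window 6 genes were marked in each genotype. There, Pcdh18 was marked in WT alone, over 79.4%, and Pcdh20 in Spen KO alone, over 45.7%. None carried H3K9me3 or H3K27Ac, and Oct4 was called at Pcdh10 and Pcdh17 in WT replicate 2. Among 11 genes of CTCF and cohesin, which shape promoter contacts in these clusters, 11 had H3K4me3 in both genotypes, and H3K27Ac was on 9 in WT and 10 in Spen KO, with Smc1a added. Among 19 genes of H3K9 and DNA methylation or other silencing, H3K4me3 was on 19 in WT and 18 in Spen KO, Cbx5, a heterochromatin protein, being the gene without it. In the window at its start site, however, Cbx5 had H3K4me3 in both genotypes, over 100% in WT and 55.5% in Spen KO. H3K27Ac was on 12 in each genotype, with Dnmt3b, Dnmt3l and Ehmt1 marked in WT alone and Atf7ip, Cbx5 and Suv39h1 in Spen KO alone. In the start site window, Cbx5 and Dnmt3l had H3K27Ac in both genotypes, and the other 4 genes kept the same call. Over all genes, H3K27Ac was on 15.3% of first exons in WT and 17.0% in Spen KO. None of the 30 genes of these 2 lists had H3K9me3 on the first exon, where 6.39% (WT) and 6.32% (Spen KO) of all genes did.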

How the data were processed

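ChIP-seq peak lists of WT and Spen KO mESCs were analysed. Per the methods, the authors mapped paired 75 bp reads to mm9 with Bowtie2, kept uniquely mapped pairs, discarded duplicates (Picard) and ran MACS2 for peaks, with a q-value limit of 0.01. H3K4me3 and H3K27Ac lists hold a deposited score for each library and were kept by the authors at an irreproducible discovery rate below 0.05, and the mean score was used for ranking. The deposited H3K9me3 lists give a p-value and a score per domain of joined 200 bp windows, a format that the MACS2 calling described for histone marks does not give, so how these lists were made is uncertain. Deposited Oct4 lists give, per library, the fold enrichment over input and −log10 p-values and q-values. Columns that are not used numbered 0. Counts of reads were not analysed here, so depth is unknown.

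Peaks and features were matched with Python 3.11.15, numpy 2.4.6 and pandas 2.3.3 at an overlap of at least 1 bp, with starts counted from 1. The first exon was that of the protein-coding transcript with the longest coding sequence. Words of 75 bases were counted over both strands of mm9 with numba 0.67.0. Interval code was tested on simulated data. Named genes were C-type members, members with any active mark or a change of H3K9me3 at the first exon, members at cluster ends, genes between the clusters and the 5 nearest on each side, and up to 6 genes per fixed list that differed between genotypes. Lrif1, Map2, Tfcp2l1 and Wapl were not matched by symbol. Members, lists and alternatives were chosen with earlier results of these data known.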

Additional observations from a re-analysis of the deposited data

How the results depend on the processing

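Alternatives were compared with the main value of each share by its Wilson 95% interval and of each coverage by a factor of 1.5. H3K27Ac at the first exons stayed at 0% under every alternative run. H3K9me3 did so except for 8.33% of genes (Pcdhb8 and Pcdhb9) with a domain within 1000 bp in WT and for 10.3% of the 58 reading frames in each genotype. For H3K4me3, 95.8% of members in each genotype became 12.5% (WT) and 4.17% (Spen KO) when at least 50% of the exon had to be covered, 70.8% and 29.2% in the stronger 50% of each list, and 25% and 12.5% in the window of 1000 bp on each side of the start site. The median change in H3K4me3 coverage, -6.64 points, was -12.8 over all annotated first exons and -17.8 over the reading frames, both chosen after seeing the data. Coverage of the Pcdhg cluster by H3K9me3 fell to 0% in the stronger 50% of both lists and, in Spen KO, with lists of equal length. Domain coverage of the other clusters moved by less than the factor of 1.5. The difference in Oct4 peaks in the cluster spans ranged from -0.5 to 0.5 without 1 library, and that at first exons stayed at 0. With the replicate number as a block both differences were 0. No paired analysis was possible for the histone marks because each genotype has 1 set of peaks and the columns of library scores do not name the replicate. Unknown depth limits every absence reported here to absence from a list.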
